A study of Mus musculus with 6 samples.

Results

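The genes described here encode the proteins of the cytosolic ribosome. They were taken by symbol from the deposited gene table: Rpl or Rps followed by a number and optionally a, l or x, plus Rplp0, Rplp1, Rplp2 and Rpsa, leaving out symbols that end in ps. The rule found 81 genes among 43346 rows, of which 46 encode proteins of the large subunit, 32 of the small subunit and 3 of the stalk. The rule reads symbols only, although the family was picked with earlier results of these data known.

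A ribosome is built from a large and a small subunit, each made of ribosomal RNA and many proteins that are needed in matching amounts. The stalk of the large subunit, formed by the products of Rplp0, Rplp1 and Rplp2, recruits elongation factors. Most of these mRNAs begin with a run of pyrimidines, the terminal oligopyrimidine start, through which their translation is tied to mTORC1 signalling. The genes are also known for the many processed pseudogenes they have left in mammalian genomes, which makes short reads from them hard to place.

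RNA from the brain of 6 adult male littermates was sequenced, 3 labelled Kdm5c deficient and 3 wild type. Kdm5c is an X-linked gene for a histone H3 lysine 4 demethylase. Every mouse came from a heterozygous deficient mother on C57BL/6 and a wild-type father of strain 129, so both groups share a mixed C57BL/6 and 129 background. The deleted or disrupted part of Kdm5c, the exact age and the brain region are not given in these sources. The comparison asks which transcripts differ between brains with and without an intact Kdm5c.

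Libraries held 20221675 to 24555412 counts, and the ribosomal protein genes held 0.345 to 0.391% of them. Kdm5c itself had 1572, 1561 and 1713 counts in the deficient brains against 1916, 1692 and 1921 in the wild-type brains (log2 fold change -0.16 ± 0.07, SE; adjusted p = 0.196 in edgeR's quasi-likelihood test); without knowledge of the allele this does not check the labels. All 8 neuronal markers used to check the tissue were present in every mouse, with summed levels of 7688 to 8838 CPM (counts scaled to a common library total). The summed level of 14 cerebellar markers was 3134, 1163 and 2565 CPM in the deficient brains against 3480, 3638 and 3980 CPM in the wild-type brains, with deficient mouse 2 far below the others. Among mice of one genotype no pair of libraries agreed within sampling noise (chi-square per gene from 3.56 to 17.6), so each was counted as a replicate. The p-values measure the spread between these 6 brains.

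How these genes begin can be seen in the windows of 15 bases before and 15 bases after the annotated transcription start, read from the RefSeq promoter table on GRCm38.p6. RefSeq promoters were matched for 60 of the 81 genes. A run of at least 8 pyrimidines covered the annotated start in 17 of the 60 (28.3%) and in 4.59% of 27025 genes with a promoter in the table. A run of that length within 20 bases of the start was held by 32 of the 60 (53.3%) and by 23.7% of all genes. Of the 17, 6 are shown to illustrate the family's start, with the run in capitals, each read 5′ to 3′ on the gene's own strand. They are Rpl35 at chr2:39005117-39005146 (minus strand), Rpl15 at chr14:18270972-18271001 (minus), Rplp2 at chr7:141447636-141447665 (plus), Rps9 at chr7:3704026-3704055 (plus), Rps18 at chr17:33955651-33955680 (minus) and Rps27 at chr3:90213634-90213663 (minus).
Rpl35: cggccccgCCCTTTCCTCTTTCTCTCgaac
Rpl15: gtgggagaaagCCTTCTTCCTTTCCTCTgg
Rplp2: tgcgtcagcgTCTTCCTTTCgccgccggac
Rps9: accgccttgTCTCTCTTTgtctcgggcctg
Rps18: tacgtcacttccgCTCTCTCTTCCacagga
Rps27: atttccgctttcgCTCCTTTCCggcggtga

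Other letters of these promoters, searched on both strands from 250 bases before to 50 bases after the start, also differed in frequency from all genes. A gene was counted where any of its promoters in the RefSeq table held the letters. CCGGAAG, the core recognised by ETS family factors, occurred in 25 of the 60 genes (41.7%) and in 9.93% of all genes with a promoter. GGGCGG, bound by SP1, occurred in 36 of the 60 and in 38.2% of all genes, and AAGATGGC, bound by YY1, in 5 (8.33% against 3.19%). The motif of NRF1 occurred in 5 (8.33% against 5.19%). TATAAA was found in 6 of the 60 and in 15.7% of all genes. The median number of CpG dinucleotides, taking the highest count among a gene's promoters, was 21 against 8. These are matches of letters and do not show that a factor binds there.

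**Figure D1:**
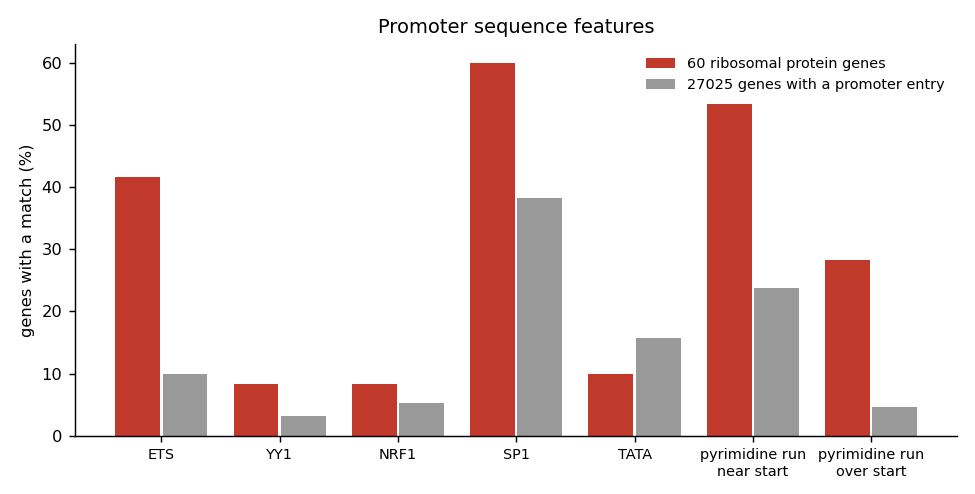
Share of genes (%) with a promoter that holds each sequence feature, for the 60 ribosomal protein genes with a RefSeq promoter (red) and for all 27025 genes with one (grey). The ETS letters were found in 41.7% against 9.93% and a pyrimidine run over the start in 28.3% against 4.59%.

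Many of these genes could be counted only in part, because much of their mRNA also occurs elsewhere in the annotated transcriptome. A median of 46.9% of the 50-base windows of the main mRNA was found in no other GENCODE M21 gene (range 1.35 to 100% over the 81 genes), and 45 of the 81 were under 50%. The medians of other lists were 97.0% for 77 mitochondrial ribosomal protein genes, 98.1% for 77 oxidative phosphorylation genes and 99.3% for 39 proteasome genes. A window of 78 of the 81 genes was shared with at least 1 annotated pseudogene, with a median of 8 pseudogenes per gene and at most 120. How the authors treated reads that match several genes is not given in these sources.

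Genes with few unique windows were mostly listed at low levels, though not all were. The mean level per length, in RPKM (CPM divided by the length of the main mRNA in kilobases), had a median of 4.06 in 18 genes with under 20% unique windows and of 27.1 in 27 genes with 20 to under 50%. Leaving out 5 copies whose symbols end in l, which are described below, the medians were 32.2 RPKM in 22 genes with 50 to under 80% and 39.1 RPKM in 9 genes with at least 80%. With those copies included, the medians were 29.1 RPKM in 23 genes and 25.8 RPKM in 13 genes. Over all 81 genes the Spearman correlation between unique windows and level was 0.351, and it was 0.457 with windows of 100 bases. The genes share their libraries and many of their pseudogene families, so this is a description and not a test. Whether the listed levels follow from how shared reads were counted was not tested.

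**Figure D2:**
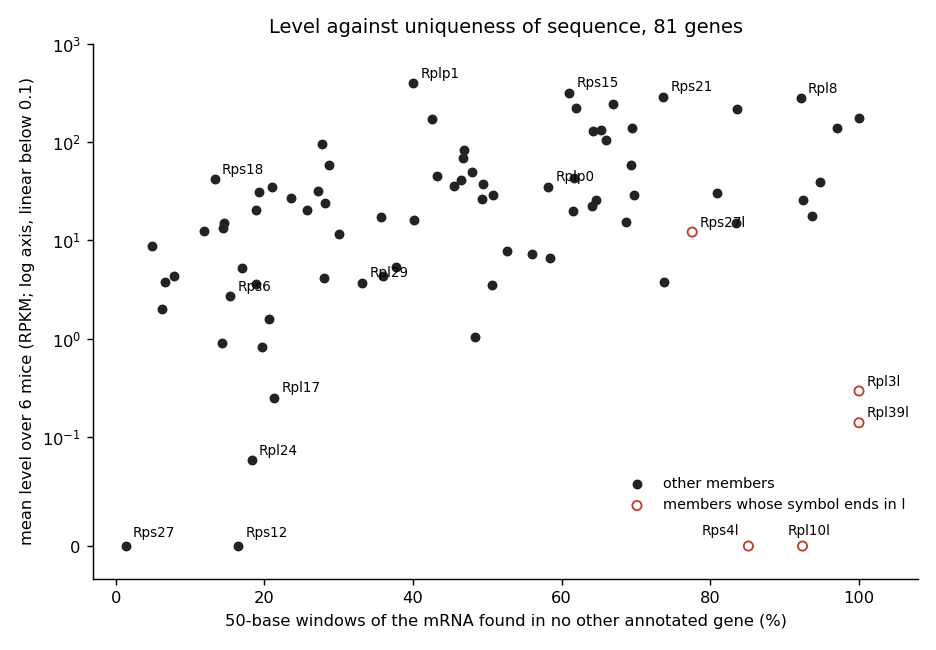
Mean level over 6 mice (RPKM, log axis that is linear below 0.1) against the share of 50-base mRNA windows found in no other annotated gene (%), for the 81 genes. Rps27 and Rps12 sit at 0 with few unique windows, while Rps4l and Rpl10l (open circles, symbols ending in l) sit at 0 with mostly unique sequence.

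At the low end, Rps12 and Rps27, which encode constitutive proteins of the small subunit, had 0 counts in all 6 libraries, which allows a level of up to 0.148 CPM in the shallowest library by counting error alone. Only 1.35% of the 50-base windows of Rps27 and 16.4% of those of Rps12 were unique. Rps27 shared 292 of its 296 windows with Rps27rt, a retrogene that GENCODE lists as coding, and Rps12 shared 445 of 535 with Rps12-ps3, also listed as coding. Neither copy had a count in any mouse. None of the 252 coding bases of Rps27 and none of the 396 of Rps12 differed from the copy, and the first 60 coding bases of each pair show the identity that a read would meet.
Rps27: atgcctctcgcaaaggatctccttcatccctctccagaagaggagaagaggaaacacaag
Rps27rt: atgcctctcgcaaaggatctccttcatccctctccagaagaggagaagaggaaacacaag
Rps12: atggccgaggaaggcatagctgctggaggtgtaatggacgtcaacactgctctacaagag
Rps12-ps3: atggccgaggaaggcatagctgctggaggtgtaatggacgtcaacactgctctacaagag

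Rpl24 and Rpl17, both of the large subunit, had almost no reads either. The counts of Rpl24 were 0, 1 and 1 in deficient brains against 1, 3 and 1 in wild-type brains, with 18.3% unique windows. Those of Rpl17 were 6, 2 and 5 against 5, 4 and 4, with 21.4% unique windows and matches to 50 pseudogenes. The 252 rows for ribosomal pseudogenes whose symbols end in ps held only 7 to 12 counts per library in sum, and 16 of them had any read. Pseudogenes under other names are not in that sum, such as Gm8730, described below, with 123 to 266 counts per library. Some genes with under 20% unique windows were well counted, such as Rps18 (13.3%, 455 to 615 counts) and Rpl3 (14.4%, 340 to 453 counts). As the treatment of shared reads is not given, a count near 0 does not by itself show a low amount of mRNA. The cause of the counts near 0 was not tested.

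Copies named with a final l are retrogenes or relatives that are known from testis or muscle, or respond to p53, and their sequence is mostly unique. Rpl10l, a testis copy of Rpl10, and Rps4l, a copy of the X-linked Rps4x, had 0 counts in every mouse. Rpl3l, the muscle counterpart of Rpl3, had 6, 8 and 7 counts in deficient brains against 12, 6 and 16. Rpl39l, the testis counterpart of Rpl39, had 2, 5 and 6 against 0, 1 and 1; the genotypes did not overlap, but the counts were too low for the test, and no fold is given. Rps27l, a p53-responsive relative of Rps27, was well detected at 6.57 ± 0.346 CPM in deficient and 5.57 ± 0.359 CPM in wild-type mice (SD, n = 3 each).

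The level per length was highest for the stalk gene Rplp1, at 399 RPKM averaged over 6 mice, although 40.0% of its windows are unique. In single mice it was 431, 438 and 397 RPKM in deficient and 372, 382 and 373 RPKM in wild-type brain. Rps15, a protein of the head of the small subunit, followed at 320 RPKM, then Rps21 at 291 and Rpl8, at the core of the large subunit, at 281 RPKM. In deficient mice Rps21 (290 to 339 RPKM) overlapped Rps15 (321 to 352) and Rpl8 (283 to 301), while in wild-type mice Rps15 (301 to 308) lay above Rps21 (269 to 279) and Rpl8 (260 to 276), which overlapped. Rplp1 was above these 3 genes in every mouse. The median over the 81 genes was 20.6 RPKM. Levels per length depend on the transcript used: those of Rps20 (25.8 RPKM) and Rps15a (17.7 RPKM) were computed over the longest transcripts of the family, 3706 and 5179 nt, and which transcript the reads came from was not tested.

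For the comparison of genotypes, 73 of the 81 genes had enough reads to be tested, in a fit over 15127 genes. The 8 left out were Rpl10l, Rps4l, Rps12, Rps27, Rpl24, Rpl17, Rpl39l and Rpl3l. By edgeR's quasi-likelihood test no ribosomal protein gene passed an adjusted p of 0.05 in either direction, while 4.93% of all tested genes did (2.45% higher and 2.48% lower in deficient brain). By DESeq2 1 gene passed, Rps14 (adjusted p = 0.0421), beside 8.32% of all genes with an adjusted p, and by limma-voom 0, beside 4.65%. With a filter of at least 5 CPM, 1 passed by edgeR, beside 4.99%. At an unadjusted p under 0.05 in edgeR's test there were 25 of the 73, 23 higher and 2 lower, beside 24.9% of all genes (12.1% higher and 12.8% lower).

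The log2 fold changes, deficient over wild type, were small and mostly positive. They ran from -0.43 for Rps23 to 0.34 for Rps13, with a median of 0.11 beside 0.00 over all tested genes, and 65 of 73 lay within 0.25 of 0. A value above 0 was found for 58 of the 73 genes, beside 50.3% of all genes. The 95% interval lay within 0.5 of 0 on the log2 scale for 57 genes and within 1 for 70, so a change beyond those sizes is outside the interval for them. It included 0 for 48 genes, lay above 0 for 23 and below 0 for 2. Because genes of this family shift together within a mouse, such counts are not counts of independent events.

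**Figure D3:**
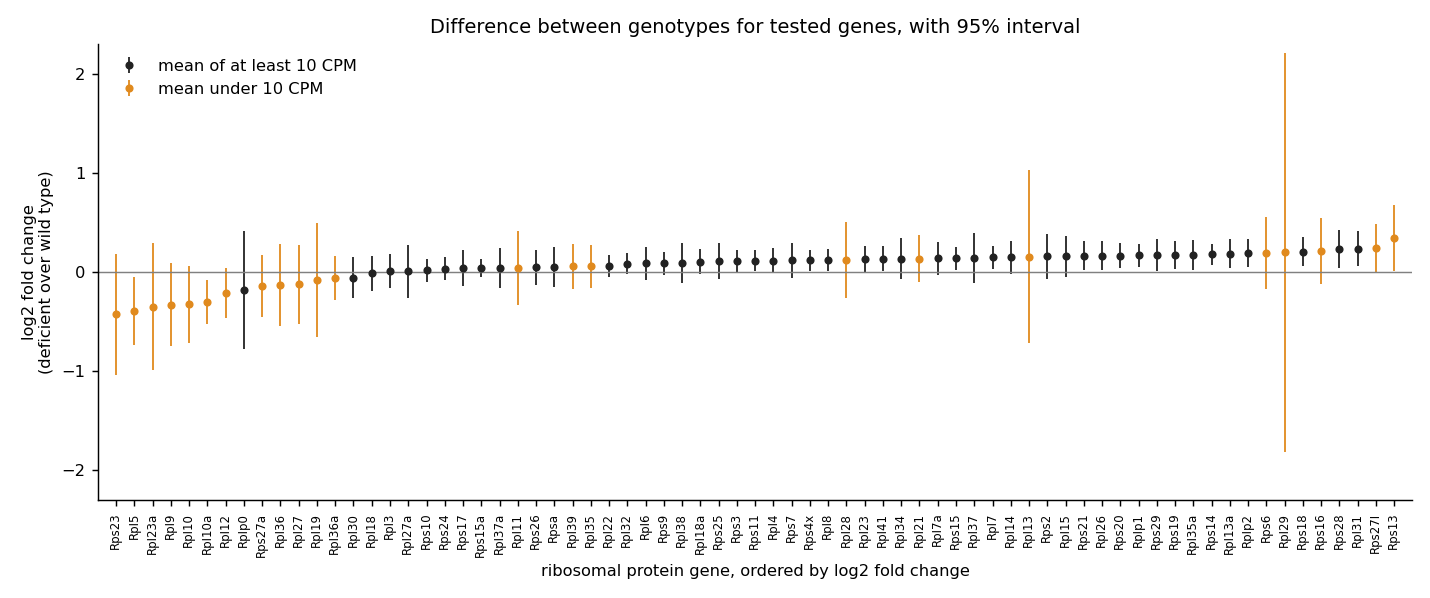
Log2 fold change of deficient over wild type (y axis) with its 95% interval for 71 tested ribosomal protein genes, ordered along the x axis, with genes averaging at least 10 CPM in black and lower ones in orange. Most black points lie just above 0, and the widest interval belongs to Rpl29.

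Most positive values came from well detected genes. Of 50 genes averaging at least 10 CPM, 47 were above 0 (median 0.12), beside 51.6% of the 9988 tested genes at that level, and for 26 every deficient mouse was above every wild-type mouse, beside 16.3%. None of the 50 had all deficient mice below all wild-type mice, beside 17.4%. Of the 11 genes averaging at least 100 CPM, all 11 were above 0 (beside 60.0% of 2454) and 10 were without overlap (beside 21.2%); the one with overlap was Rps9. Of 23 tested genes under 10 CPM, 11 were above 0 and 12 below, with a median of -0.06. Over all 73 tested genes the genotypes did not overlap for 33, beside 30.8% of all genes: 29 were higher and 4 lower, beside 14.9% and 16.0%.

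In the small subunit 27 of 29 tested genes were above 0 (median 0.14), in the large subunit 29 of 41 (median 0.09) and in the stalk 2 of 3. The summed level of all 81 genes was 3743, 3963 and 3649 CPM in deficient brains against 3571, 3431 and 3466 CPM in wild-type brains, so the sums did not overlap. The mean log2 deviation, in which each tested gene counts alike, was -0.05, 0.12 and 0.02 in deficient brains against 0.03, -0.09 and -0.02 in wild-type brains and did overlap. Over the 50 genes with at least 10 CPM it was 0.02, 0.12 and 0.02 against -0.02, -0.09 and -0.06, without overlap. Deficient mouse 2 was the highest in all 3 measures. In bulk tissue, a different share of cells of some type and a different amount of RNA per cell cannot be told apart.

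Sums of some cell type and regional marker lists also differed between genotypes, while others overlapped. The mouse that stood out was not the same for all lists. Counts past the threshold stand beside 4.93% of all tested genes. The cerebellar sums given above did not overlap between genotypes, and 14 of 14 cerebellar markers had a log2 fold change below 0 (median -0.82, none past the threshold). At an unadjusted p under 0.05 by edgeR 6 of the 14 were lower, beside 12.8% of all genes. For 10 oligodendrocyte markers the sums were 5840 to 7366 CPM in deficient and 7525 to 8513 CPM in wild-type mice, with 9 below 0 and 3 past the threshold. For 9 excitatory neuron markers they were 1433 to 1842 against 1359 to 1562 CPM, with 8 above 0, and deficient mouse 2 was the highest. Sums of 9 microglial markers were 290 to 332 CPM against 264 to 271 CPM, and those of 8 astrocyte markers 5239 to 5618 CPM against 4789 to 5069 CPM, with 1 higher gene past the threshold in each. For 10 markers of newborn neurons and olfactory bulb the sums were 92.0 to 151 CPM against 90.9 to 97.4 CPM, with 10 above 0 (median 0.47) and 2 higher past the threshold, and deficient mouse 3 was the highest. For 5 red blood cell genes they were 63.3 to 74.2 CPM against 73.3 to 79.955 CPM, with 4 below 0 and 1 past the threshold. Sums also overlapped for inhibitory neurons (1170 to 1213 against 1139 to 1208 CPM) and endothelial cells (210 to 249 against 214 to 221 CPM). The same held for choroid plexus and ependyma (607 to 908 against 801 to 937 CPM). At an unadjusted p under 0.05 by edgeR, 5 oligodendrocyte, 3 red blood cell and 1 excitatory neuron marker were also lower. Higher at that p were 5 excitatory neuron, 5 microglial, 5 newborn neuron and 4 astrocyte markers, beside 12.1% of all genes. The inhibitory neuron list had 2 higher, the endothelial list 2 and the choroid plexus list 1. No marker of these lists was at 0 in any mouse. Their part in the ribosomal protein values was not tested. Without deficient mouse 2, 42 of the 50 better detected genes were above 0, with a median of 0.09 in place of 0.12; over all tested members the median was 0.07 and 51 of 74 were above 0.

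**Figure D4:**
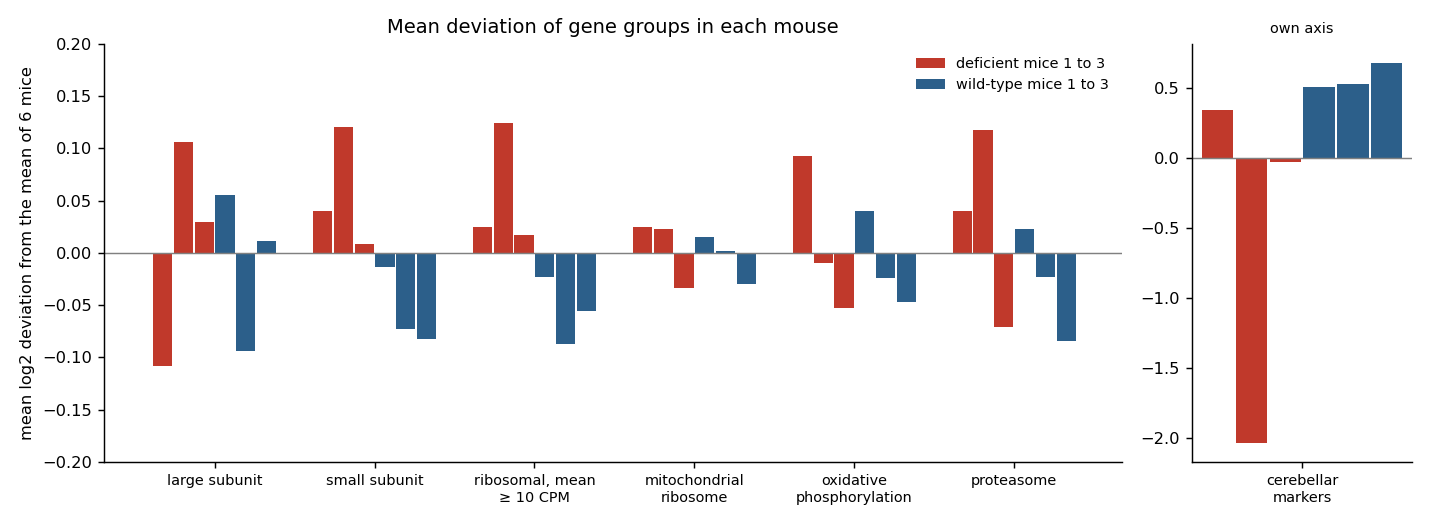
Mean log2 deviation from the mean of the 6 mice (y axis) in each mouse, for groups of ribosomal protein genes, 3 comparison lists and cerebellar markers on an axis of their own, with deficient mice 1 to 3 in red and wild-type mice 1 to 3 in blue. For ribosomal genes with at least 10 CPM the bars run from 0.02 to 0.12 in deficient and from -0.09 to -0.02 in wild-type mice, and deficient mouse 2 stands at -2.04 for cerebellar markers.

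The smallest p-values belonged to genes of the small subunit and the stalk, and none passed the threshold by edgeR's test. Rps14 (chr18:60747098-60778546), known from the deletion found in a form of myelodysplastic syndrome, was at 142, 145 and 135 CPM in deficient and 126, 122 and 125 CPM in wild-type mice. The genotypes did not overlap, and the log2 fold change was 0.18 ± 0.05 (SE, adjusted p = 0.0628 by edgeR). Rps18 was at 24.3, 25.8 and 25.0 CPM against 22.5, 22.3 and 20.4 CPM, at 0.21 ± 0.07 (SE, adjusted p = 0.103 by edgeR), with 13.3% unique windows and an antisense overlap with Vps52.

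In the stalk, Rplp1 (chr9:61913284-61914542) was at 215, 219 and 198 CPM in deficient and 185, 190 and 186 CPM in wild-type mice. Its log2 fold change was 0.17 ± 0.05 (SE, adjusted p = 0.0897 by edgeR). Rplp2 (chr7:141447370-141451585), its partner in the stalk dimer, was at 56.7, 61.7 and 60.6 CPM against 50.9, 49.8 and 55.9 CPM, at 0.19 ± 0.06 (SE, adjusted p = 0.0999 by edgeR). Both were without overlap, though deficient mouse 1 and wild-type mouse 3 differed by little for Rplp2. Without deficient mouse 1, 2 genes passed the threshold, among them Rplp2 (adjusted p = 0.0454 by edgeR), beside 13.6% of all genes tested in that fit. At an adjusted p under 0.1, 5 of the 73 genes passed with all mice (all higher, among them Rps14, Rplp1 and Rplp2). That is 6.85% of the members, beside 11.8% of all genes, or 5.67% counting higher genes only.

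Among the 6 largest positive log2 fold changes, those of Rps13, Rps27l and Rps16 came from means under 10 CPM. Rps13 was at 3.38, 3.90 and 3.08 CPM in deficient and 2.79, 2.89 and 2.54 CPM in wild-type mice, at 0.34 ± 0.15 (SE, adjusted p = 0.197 by edgeR), without overlap. Rps27l had 0.24 ± 0.11 and Rps16 0.21 ± 0.15 (SE), and Rps16 overlapped between genotypes. Rpl31 (0.23 ± 0.08, SE) was at 12.7, 13.6 and 13.6 CPM against 11.3, 11.2 and 11.4 CPM, and Rps28 (0.23 ± 0.08, SE) at 11.2, 11.5 and 11.2 CPM against 10.1, 9.39 and 9.32 CPM. Both were without overlap, at adjusted p of 0.112 and 0.134 by edgeR. Rpl31 and Rps28 each have exons that overlap an antisense gene.

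Genes with high levels also had small positive differences. Rps15 was at 166, 176 and 160 CPM against 154, 151 and 153 CPM, at 0.14 ± 0.05 (SE, adjusted p = 0.136 by edgeR). Rps21 was at 114, 134 and 116 CPM against 110, 106 and 109 CPM, at 0.16 ± 0.06 (SE, adjusted p = 0.164 by edgeR), with deficient mouse 2 standing above the others. Rpl4 (0.11), Rpl8 (0.12), Rps3 (0.11), Rpl13a (0.18) and Rps20 (0.16) likewise had all 3 deficient mice above all wild-type mice without passing. The median standard deviation within a genotype was 0.08 on the log2 scale for the 73 genes and 0.11 for all tested genes.

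**Figure D5:**
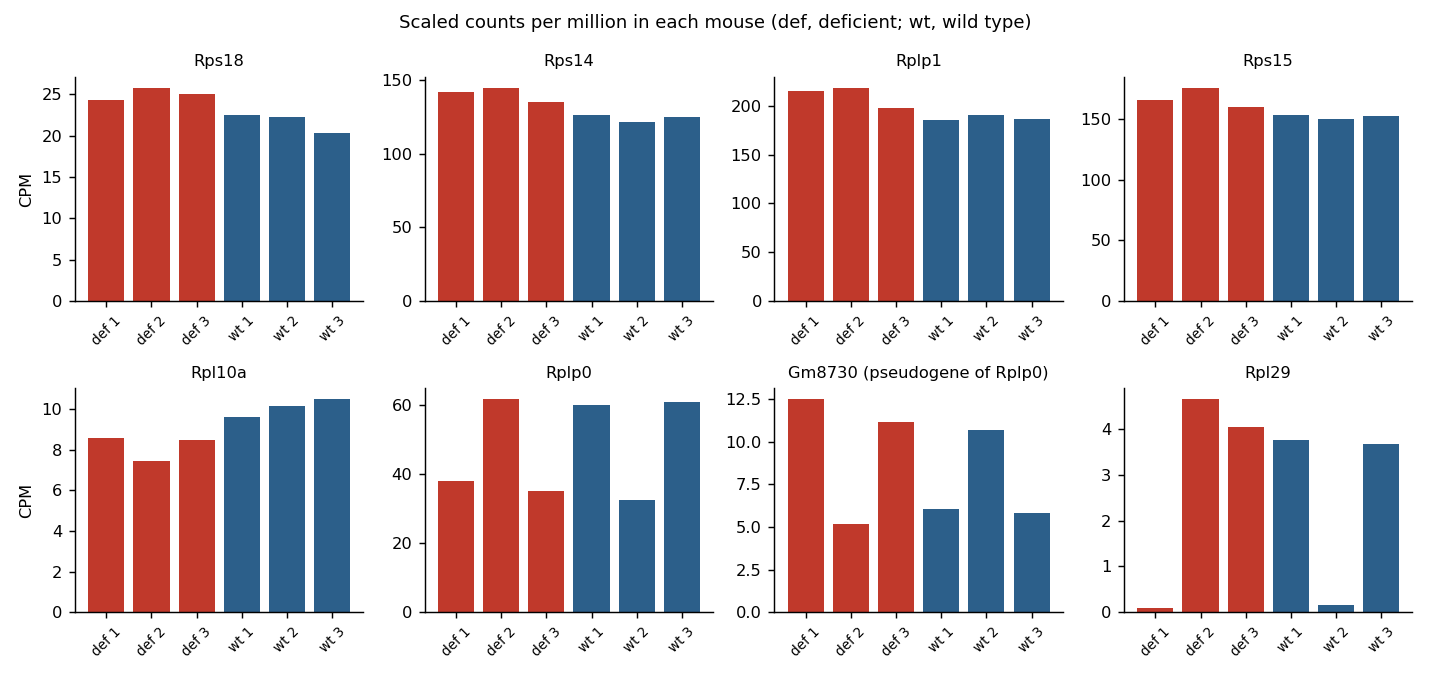
Level in scaled CPM (y axis, from 0) in each of the 6 mice, deficient in red and wild type in blue, for 7 ribosomal protein genes and the pseudogene Gm8730. Rps18, Rps14, Rplp1 and Rps15 are slightly higher in all deficient mice, Rpl10a is lower, and Rplp0, Gm8730 and Rpl29 fall into high and low mice within each genotype.

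Of the 15 tested genes with a negative value, 12 had a mean under 10 CPM. Rpl10a (chr17:28328471-28331033), of the large subunit, was at 8.60, 7.47 and 8.47 CPM in deficient and 9.59, 10.2 and 10.5 CPM in wild-type mice. The genotypes did not overlap; the log2 fold change was -0.30 ± 0.10 (SE, adjusted p = 0.105 by edgeR), with 11.9% unique windows and an antisense overlap. Rpl5, which with Rpl11 and the small ribosomal RNA of the large subunit can bind the p53 regulator Mdm2, was at 3.53, 3.74 and 3.41 CPM against 4.74, 5.48 and 3.85 CPM, at -0.39 ± 0.15 (SE, adjusted p = 0.156 by edgeR) and with 6.16% unique windows. These were the 2 genes lower at an unadjusted p under 0.05. Rpl12 and Rpl23a were also without overlap on the lower side, at -0.21 ± 0.11 and -0.35 ± 0.28 (SE). Rps23 (-0.43 ± 0.27), Rpl9 (-0.33 ± 0.18) and Rpl10 (-0.33 ± 0.17, SE) overlapped between genotypes. All 7 of these genes had a mean under 10 CPM, and all but Rpl12 had under 50% unique windows.

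The 4 members on the X chromosome, where Kdm5c also lies, did not share a direction. Rps4x was at 98.0, 102 and 95.4 CPM in deficient and 92.2, 91.5 and 88.3 CPM in wild-type mice, without overlap, at 0.12 ± 0.05 (SE, adjusted p = 0.158 by edgeR). Rpl39 (0.06 ± 0.10) and Rpl36a (-0.06 ± 0.10, SE) had intervals that include 0, as did Rpl10. The median of the 4 was 0.00. Rpl3, paired here with its muscle copy Rpl3l, was at 0.01 ± 0.08 (SE), with an interval from -0.16 to 0.18.

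A few genes varied widely between mice of one genotype. The within-genotype standard deviation was 2.49 on the log2 scale for Rpl29, 0.54 for Rpl13, 0.48 for Rplp0 and 0.31 for Rps23. It exceeded the size of the log2 difference between genotypes for Rpl29, Rpl13 and Rplp0, but not for Rps23 (-0.43). Rpl13 (7 to 20 counts per mouse) and Rps23 (15 to 33) had few reads, so counting error adds to their spread. Rplp0, often used as a reference transcript in PCR assays, had 809, 1468 and 764 counts in deficient brains against 1482, 665 and 1390. High and low mice were found in both genotypes, so the log2 difference (-0.19 ± 0.26, SE; adjusted p = 0.697 in edgeR's test) compares mixed groups.

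The processed pseudogene Gm8730 (chr8:102864845-102865798), which shares 357 of the 1309 windows of Rplp0, ran the other way, with 266, 123 and 243 counts in deficient brains against 149, 218 and 133. The 3 mice high for Rplp0 were the 3 low for Gm8730. Summed, the pair had 1075, 1591 and 1007 counts against 1631, 883 and 1523, so the split remained in the sum. The coding sequences differ at 12 of 951 bases, and the 60-base stretch with most differences, from coding base 388 of Rplp0, is shown with the 3 differing bases in capitals.
Rplp0: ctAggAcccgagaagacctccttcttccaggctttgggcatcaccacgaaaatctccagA
Gm8730: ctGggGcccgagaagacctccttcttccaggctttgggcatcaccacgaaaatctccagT

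Rpl29, a basic protein of the large subunit, was nearly absent from 1 mouse of each genotype. It had 2, 111 and 88 counts in deficient brains against 93, 3 and 84, so deficient mouse 1 and wild-type mouse 2 stood apart. The log2 difference of 0.20 ± 0.89 (SE; adjusted p = 0.914 in edgeR's test) turned negative without wild-type mouse 2 (-0.32), deficient mouse 2 (-0.31) or deficient mouse 3 (-0.08), and reached 0.75 at most in such fits. Rpl29 shares windows with 81 pseudogenes, and its closest copy, Gm6344, with 3 of 480 coding bases different, had 0 counts in all mice. None of the annotated copies that share its windows had the highest count of each genotype in both of those mice, and most had 0 counts throughout. The copy 4931440P22Rik had 24, 16 and 19 counts in deficient brains against 32, 14 and 21. Gm10548 had 27, 37 and 38 against 22, 33 and 30. Each of these copies was thus highest within a genotype in only 1 of those 2 mice.

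The values were also split by what the promoters hold. All 16 tested genes with the run were above 0 (median 0.13), as were 27 of 38 without it (median 0.11). Of 24 with the ETS letters, 23 were above 0 (median 0.12), and 20 of 30 without them (median 0.10). Across the 73 tested genes the Spearman correlation with the log2 fold change was 0.346 for RPKM, 0.216 for unique windows and -0.12 for mRNA length. Level, uniqueness and counting error are linked, so these coefficients describe the set and were not tested.

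The rest of the translation machinery was read from lists of related genes in the same fit. Ribosomal proteins that the symbol rule misses, such as Fau, and the ribosome-bound scaffold Gnb2l1 (Rack1) had 0 of 7 tested genes past the threshold by edgeR, DESeq2 or limma-voom and 0 at an unadjusted p under 0.05 by edgeR, at a median of 0.06. Of 17 elongation and release factors 0 passed by edgeR and limma-voom and 1 by DESeq2, beside 8.32% of all genes with an adjusted p. A log2 fold change above 0 was found for 12 of the 17, beside 50.3% of all genes. At an unadjusted p under 0.05 by edgeR 2 of the 17 factors were higher, beside 12.1% of all genes. Among them Eef1a1, which delivers aminoacyl-tRNA to the ribosome and has a pyrimidine start like the ribosomal genes, was at 979, 1099 and 1034 CPM in deficient and 919, 841 and 895 CPM in wild-type mice. Its values did not overlap, at 0.23 ± 0.06 (SE, adjusted p = 0.0553 by edgeR), and its exchange factor Eef1b2 had 0.17 ± 0.05 (SE, adjusted p = 0.0960 by edgeR). Exons of Eef1a1 and Eef1b2 overlap another gene on the same strand, and those of Eef1b2 also the antisense gene Ndufs1. Over the 21 other mRNAs with a pyrimidine start, 16 were above 0 (median 0.07), beside 50.3% of all genes. Beside 4.93% of all genes, 1 of the 21 passed and was lower, the small nucleolar RNA host Snhg1 (-0.41 ± 0.10, SE, adjusted p = 0.0452 by edgeR). Exons of Snhg1 overlap other genes on the same strand, among them Snord22.

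Ribosomes are built by assembly factors and by RNA polymerase I. Of 71 assembly and rRNA transcription genes 2 fell and 0 rose, with a median of -0.02. Mdn1, the large ATPase that remodels the immature large subunit, went from 109, 122 and 114 CPM in wild-type to 88.6, 83.3 and 91.0 CPM in deficient mice (-0.39 ± 0.06, SE, adjusted p = 0.0161 by edgeR), without overlap. Polr1b, a core subunit of RNA polymerase I, fell by 0.31 ± 0.07 on the log2 scale (SE, adjusted p = 0.0473 by edgeR). These 2 of 71 stand beside 2.48% of all genes lower past the threshold and 4.93% called in either direction.

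Upstream, 20 regulators of mTORC1, S6 kinase and Myc had a median of -0.01, with 10 above 0 and 10 below. Beside 4.93% of all genes called in either direction, 1 of the 20 passed and was lower, Rps6kb2, which encodes the second S6 kinase. It was at 19.9, 16.3 and 20.1 CPM in deficient and 28.6, 27.5 and 24.0 CPM in wild-type mice (-0.51 ± 0.10, SE, adjusted p = 0.0301 by edgeR), although its exons overlap antisense genes. Mtor itself had -0.02 ± 0.05 and Rps6kb1, the first S6 kinase, -0.07 ± 0.05 (SE). In the p53 pathway, which free ribosomal proteins are known to engage, 6 of 11 tested genes were above 0 and 5 below (median 0.02). Mean log2 deviations of this list overlapped between genotypes. Past the threshold 1 gene fell and 1 rose, beside 2.48% and 2.45% of all genes. Mdm4, an inhibitor of p53, fell (-0.44 ± 0.07, SE, adjusted p = 0.0195 by edgeR). Phlda3, a p53 target, rose (0.42 ± 0.10, SE, adjusted p = 0.0471 by edgeR). Cdkn1a, the best known p53 target, was at 13.5, 9.99 and 17.8 CPM in deficient and 9.19, 9.20 and 9.36 CPM in wild-type mice (0.57 ± 0.18, SE, adjusted p = 0.103 by edgeR).

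For the next 2 lists, the share of all genes that were lower past the threshold was 2.48%. For every list of this paragraph, the share of all genes with a log2 fold change above 0 was 50.3%. Of 43 initiation factors 1 fell, Eif5a2 (-0.24 ± 0.05, SE, adjusted p = 0.0431 by edgeR), with 31 above 0 and a median of 0.05. Of 76 mitochondrial ribosomal protein genes 1 fell, Mrps10 (-0.49 ± 0.09, SE, adjusted p = 0.0258 by edgeR), with 47 above 0 and a median of 0.03. Of 76 nuclear genes for oxidative phosphorylation 0 passed, 46 were above 0 and 3 higher and 1 lower were without overlap, beside 14.9% and 16.0% of all genes. Of 38 proteasome genes 0 passed, 30 were above 0 and 4 were without overlap, all higher, beside the same shares. At an unadjusted p under 0.05 by edgeR the oxidative phosphorylation list had 1 higher and 1 lower gene and the proteasome list 2 higher. Over all genes 12.1% were higher and 12.8% lower at that p. Neither list had a call by DESeq2 or limma-voom. None of the 8 called genes of these related lists passed without wild-type mouse 1 or without wild-type mouse 2.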

How the data were processed

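RNA of 6 mouse brains was sequenced (3 deficient, 3 wild type). Per the file headers, the authors deposited raw counts per gene symbol and mouse; whole numbers with unequal totals. Other deposited columns, the authors' log2 fold changes, p-values, scores and mean signal, were not used. The submitters' processing notes name DESeq2 and GRCm38; aligner, counter, annotation, strand and treatment of reads matching several genes are not given in these sources. Reads of overlapping or antisense genes can therefore not be separated (exons of 27 ribosomal genes overlap another gene on the same strand, mostly small RNAs, and of 18 an antisense gene).

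Counts were filtered by edgeR's default (minimum count 10, total 15) and scaled by trimmed mean of M-values in R 4.3.3 (edgeR 4.0.16, limma 3.58.1). Genotypes were compared by the quasi-likelihood test with Benjamini-Hochberg adjustment over 15127 genes. The code was tested on simulated data. The 95% intervals of log2 fold changes come from that test and include the spread between mice; the floor of 3 counts covers counting error only. RPKM used the main GENCODE M21 transcript (GRCm38), matched by symbol for 81 of 81 members and 39391 of 43346 symbols; mRNA sequences came from the same release. The members and all lists were chosen with earlier results of these data known. Full statistics went to the 6 members with the largest and smallest log2 fold changes, the 6 smallest p, the 3 highest and lowest levels, X-linked members and copy pairs, and to called members of related lists, or up to 2 where none passed. A few genes that meet these rules are not reported here. Others were named after their values were seen. Alternatives were other scalings and filters, DESeq2 1.42.0, limma-voom, GC and length offsets, a replicate block and leaving out each mouse.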

Additional observations from a re-analysis of the deposited data

How the results depend on the processing

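Of the ribosomal protein genes, 5 were higher at an adjusted p under 0.1, and 1 each with a filter of at least 5 CPM and with DESeq2 (Rps14); leaving out 1 mouse gave 0 to 2, and 0 were lower under each of these alternatives. Their median log2 fold change was 0.07 (without deficient mouse 2) to 0.13 when 1 mouse was left out, and 0.08 with GC and length offsets. The number above 0 was 51 to 60, a count tried under alternatives after seeing the data. The number of members tested also changed. It was 51 of 74 without deficient mouse 2, 60 of 77 without a filter or by DESeq2, and 53 of 58 with at least 5 CPM. The 8 calls among related genes became 18 at an adjusted p under 0.1 and 0 to 12 when 1 mouse was left out. With replicate number as a block, 0 of these calls and 0 ribosomal genes passed (58 genes in all, against 746), but correlations of same-numbered mice were -0.08, -0.19 and 0.23, so the numbers do not pair the samples. Rpl3, near 0, was -0.0062 without scaling, -0.0274 with GC and length offsets, and from -0.0384 to 0.0433 when 1 mouse was left out (negative without deficient mouse 3 or wild-type mouse 2). Rpl29 was -0.0824 with limma-voom and from -0.3232 to 0.7501 when 1 mouse was left out. The cause was not tested. Over all genes, calls ranged from 44 to 2098 when 1 mouse was left out, and DESeq2 called 1208. Depth limits the genes under about 10 CPM most.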

Other observations

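Genes around Rpl29 were looked at because deficient mouse 1 and wild-type mouse 2 had almost no Rpl29 reads; they were chosen after these values were seen. Of the 9 tested genes within 150000 bp on chromosome 9, 4 also had their lowest level of each genotype in these mice. The share of all tested genes with this pattern was not computed, so the count cannot be read as particular to this region. Over better detected genes, deviations of these 2 mice from their genotype means correlated at 0.25, the highest of the cross-genotype pairs. Poc1a, a centriole gene, was at 4.51, 9.19 and 7.504 CPM in deficient and 5.42, 2.59 and 5.69 CPM in wild-type brains, and Abhd14a at 12.03, 18.4 and 16.3 CPM against 17.5, 11.01 and 15.7 CPM. Dusp7 (57.0, 61.9 and 60.1 against 57.4, 50.3 and 59.5 CPM) and Rrp9 (17.1, 18.5 and 17.4 against 19.4, 18.0 and 18.9 CPM) differed by less. Acy1, which lies between Rpl29 and Abhd14a and encodes an aminoacylase, was highest in these mice, at 15.1, 11.96 and 12.3 CPM against 12.6, 14.2 and 12.1 CPM. These mice also had the smallest libraries of their genotypes, at 21090278 and 20221675 counts; CPM are scaled for that. Of the neighbours, Gpr62 was the one that passed the threshold between genotypes (log2 fold change 0.39 ± 0.09, SE, adjusted p = 0.0485 by edgeR).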
